A study of Mus musculus with 2 samples.

Results

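DNA replication and nucleotide supply genes are the 52 genes followed here, out of 19938 genes with a value. They were listed by name, and a value was taken from probe sets whose platform annotation names exactly 1 gene. All 52 had a value, from 55 probe sets, and for a gene with several the brightest on average was used. The cells were sorted for PDGFRα, a growth factor receptor that marks fibroblast-like cells with adipocyte precursors among them. They came from inguinal white fat, a subcutaneous pad, after collagenase had freed its stromal vascular fraction from the adipocytes. One array held RNA of Sox9 PreASKO mice and the other RNA of mice with floxed Sox9, the control. Both groups were female mice 6 weeks old given doxycycline at postnatal day 1. The promoter that drives recombination in PreASKO mice is not given in the sources used here. According to the series' design text each array was a pool of 3 mice, so there was 1 array per group, and no difference below has an error, a test or a replicate check.

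Before a cell divides it copies its genome once. In G1 the origin recognition complex, CDC6 and CDT1 load the MCM helicase onto origins as an inactive ring. The kinases CDC7-DBF4 and cyclin-CDK2 then help CDC45 and the GINS complex join MCM, and polymerases, a sliding clamp and its loader copy the strands from nucleotides made by ribonucleotide reductase, thymidylate synthase and thymidine kinase. Many of these genes are transcribed by E2F factors towards S phase. Most genes of mitosis are switched on later, in G2, through MuvB complexes. Adult adipose precursors divide rarely, and cells in and out of the cycle are mixed in a sorted sample.

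The promoters of both kinds of gene are known to carry different short words, so they are shown before the values. Windows of 300 bases, from 250 before to 50 after the start of transcription, came from RefSeq (build GRCm38.p6), and 43 of the 52 genes had 1 or more. Each window was searched on both strands for the E2F words TTTCCCGC and TTTGGCGC, and for TTTGAA, the cell cycle homology region (CHR) through which mitotic genes are bound. An E2F word was present for 13 of the 43 genes (30.2%), against 399 of 15614 genes with a window and a value (2.56%). Mitosis genes, a comparison list, had an E2F word in 0 of 29 and the CHR word in 23 of 29 (79.3%). The CHR word was present for 7 of the 43 replication genes (16.3%), against 17.3% of all genes. Other replication genes, a further comparison list outside the 52, had an E2F word in 10 of 42 (23.8%). They had the CHR word in 12 of 42 (28.6%). The 15 E2F words lay in 13 windows, 8 of them before the start and 7 at or after it, and no E2F words overlapped. A match is a description of letters and not a bound site. Only these exact words were searched, so a window without a match can still hold a variant spelling.

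**Figure D1:**
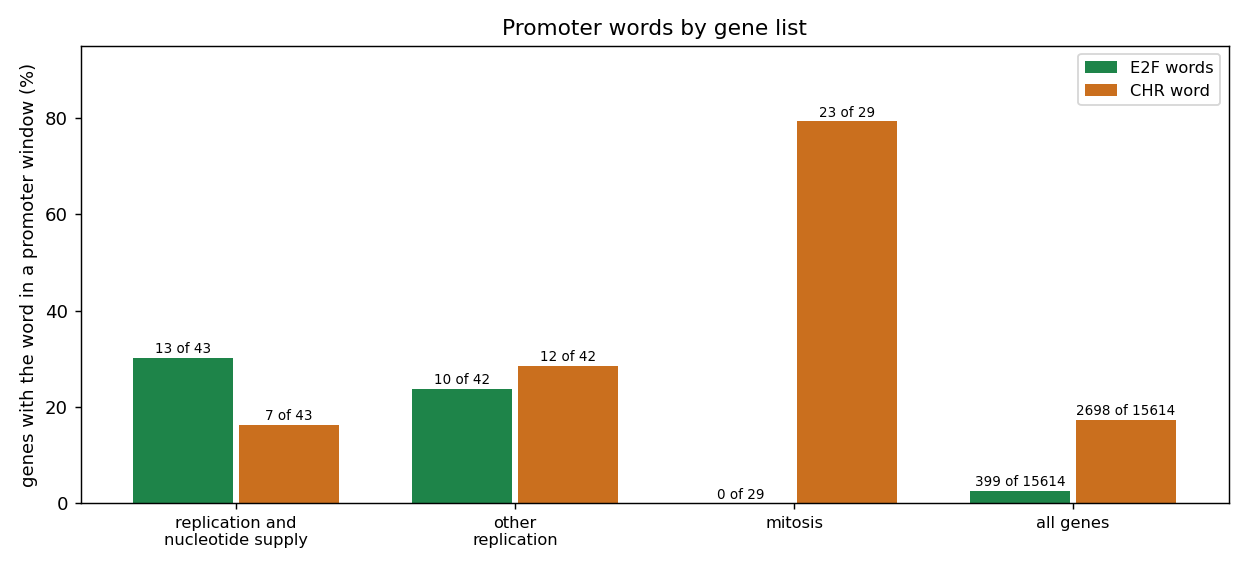
Share of genes (percent, vertical axis from 0) with an E2F word (green) or the CHR word (orange) in a promoter window, for 4 sets of genes, with counts above the bars. The replication and nucleotide supply genes held E2F words in 13 of 43 and the CHR word in 7 of 43. The other replication genes held them in 10 of 42 and 12 of 42, and the mitosis genes in 0 of 29 and 23 of 29.

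The windows of 4 genes are printed as examples with and without E2F words. Mcm6 and Mcm5 encode helicase subunits and hold E2F words, whereas Rrm2 and Tyms hold none and are the genes past the limit that were above background in at least 1 array. Capitals mark E2F words as read on the printed strand, so that the word on the other strand appears as GCGCCAAA or GCGGGAAA.
Mcm6 (minus strand, chr1:128359656-128359955): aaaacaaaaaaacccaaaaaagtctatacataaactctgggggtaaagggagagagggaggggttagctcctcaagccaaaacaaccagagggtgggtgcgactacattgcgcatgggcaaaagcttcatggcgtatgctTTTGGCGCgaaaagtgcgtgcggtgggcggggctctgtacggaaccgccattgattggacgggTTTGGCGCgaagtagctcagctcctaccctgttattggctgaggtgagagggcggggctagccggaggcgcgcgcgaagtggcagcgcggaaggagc
Mcm5 (plus strand, chr8:75109259-75109558): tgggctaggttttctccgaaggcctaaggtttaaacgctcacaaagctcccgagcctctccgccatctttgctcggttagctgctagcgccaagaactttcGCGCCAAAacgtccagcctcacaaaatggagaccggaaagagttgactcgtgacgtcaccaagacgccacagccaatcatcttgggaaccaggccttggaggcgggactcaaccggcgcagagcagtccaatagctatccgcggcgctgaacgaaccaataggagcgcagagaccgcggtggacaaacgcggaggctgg
Rrm2 (plus strand, chr12:24708004-24708303): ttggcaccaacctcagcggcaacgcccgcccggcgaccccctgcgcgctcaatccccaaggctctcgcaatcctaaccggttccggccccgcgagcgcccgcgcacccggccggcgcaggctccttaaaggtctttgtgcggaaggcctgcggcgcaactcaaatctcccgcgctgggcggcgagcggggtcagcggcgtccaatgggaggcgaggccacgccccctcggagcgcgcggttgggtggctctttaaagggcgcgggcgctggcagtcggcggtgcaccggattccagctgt
Tyms (minus strand, chr5:30073576-30073875): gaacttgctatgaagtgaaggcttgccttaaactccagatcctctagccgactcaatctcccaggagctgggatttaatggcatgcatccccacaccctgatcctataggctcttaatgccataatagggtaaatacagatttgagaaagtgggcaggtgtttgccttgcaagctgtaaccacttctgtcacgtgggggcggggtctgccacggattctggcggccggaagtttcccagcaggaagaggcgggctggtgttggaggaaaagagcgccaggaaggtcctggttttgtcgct
In Mcm6 the words begin 110 and 47 bases before the start, and in Mcm5 the single word begins 149 bases before it.

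Values are the authors' RMA levels on a log2 scale, and every difference is PreASKO minus floxed. A difference of 0.585 is 1.5-fold, the limit the series names. Levels of different genes come from different probes, so they are set only against a background mark of 4.64. That mark is the 95th percentile of 1027 genes of olfactory receptors, a family presumed to be off outside sensory neurons, in the floxed array. The same percentile was 4.47 in PreASKO, and the higher value was used for both arrays. Of the 52 genes, 41 were above the mark in both arrays, 3 in one array and 8 in neither. The neither group was Orc1, Gmnn, Mcm10, Gins1, Ccne2, Dbf4, Pole and Chaf1b, and their differences are given as readings at background.

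Sox9, the targeted gene, was at 4.97 in the PreASKO array and 5.25 in the floxed array, a difference of -0.27 that is below the limit. Whether its probes fall inside the deleted segment was not examined here. The arrays correlated with r = 0.982 over 35556 probe sets and had medians of 4.71 in PreASKO and 4.73 in floxed. Of 10 markers of the sorted cells 9 had a value, all of them above the mark in both arrays. Of these 9, 7 were lower and 2 higher in PreASKO, with a median of -0.05 and none past the limit. Pdgfra itself was at 9.55 in PreASKO and 9.86 in floxed (-0.31). Macrophage markers were higher in PreASKO in 13 of 13, against 48.2% of all genes. Past 1.5-fold were 5 of them (38.5%), against 1.66% of all genes on that side. Their median difference was 0.51, and their summed linear level was 12065 in PreASKO and 8460 in floxed. All 13 were above the mark in both arrays. Markers of mural cells had a median of -0.33 over 7 (4 lower, 3 higher) and of endothelium -0.16 over 7 (5 lower, 2 higher). The median was 0.13 over 8 markers of lymphocytes and 0.09 over 5 of epithelium. Of these, 5 and 4 were below the mark in both arrays. Both medians were 0 with values below the mark raised to it. Among the lymphocyte markers Cd3e was past 1.5-fold on the higher side (0.88). Kdr of endothelium (-0.69) and Kcnj8 of mural cells (-0.62) were past it on the lower side. Each of these genes was above the mark in both arrays. The part of these cells in the results below was not tested.

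Most replication genes were slightly lower in PreASKO and few passed the limit. Of the 52 genes, 35 were lower, 15 higher and 2 equal, whereas 48.0% of all genes were lower. The median difference was -0.13, against 0 for all genes, with a range of -1.03 to 0.49. By their deposited values Rrm2, Dbf4 and Tyms lay past the limit on the lower side, 3 of 52 (5.77%), against a background of 1.98% of all genes in that direction. The presumably silent olfactory receptor genes passed it on that side in 60 of 1027 (5.84%), with 57.9% of them lower and a median of -0.08. Over all 8138 genes below the mark in both arrays 51.8% were lower, with a median of -0.03. Dbf4 was below the mark in both arrays. With values raised to the mark 2 of the 52 genes, Rrm2 and Tyms, were 1.5-fold lower (3.85%), against 0.517% of all genes, 29 were lower, and the median was -0.04. Genes below the mark in both arrays cannot pass the limit in that setting. They were 8138 of all 19938 genes but 8 of the 52, so the 2 shares rest on unlike sets. No gene of the list was past the limit on the higher side, where 1.66% of all genes were. In either direction 3.64% of all genes passed the limit. In a sorted population, fewer cells in S phase and less RNA per cell cannot be told apart.

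**Figure D2:**
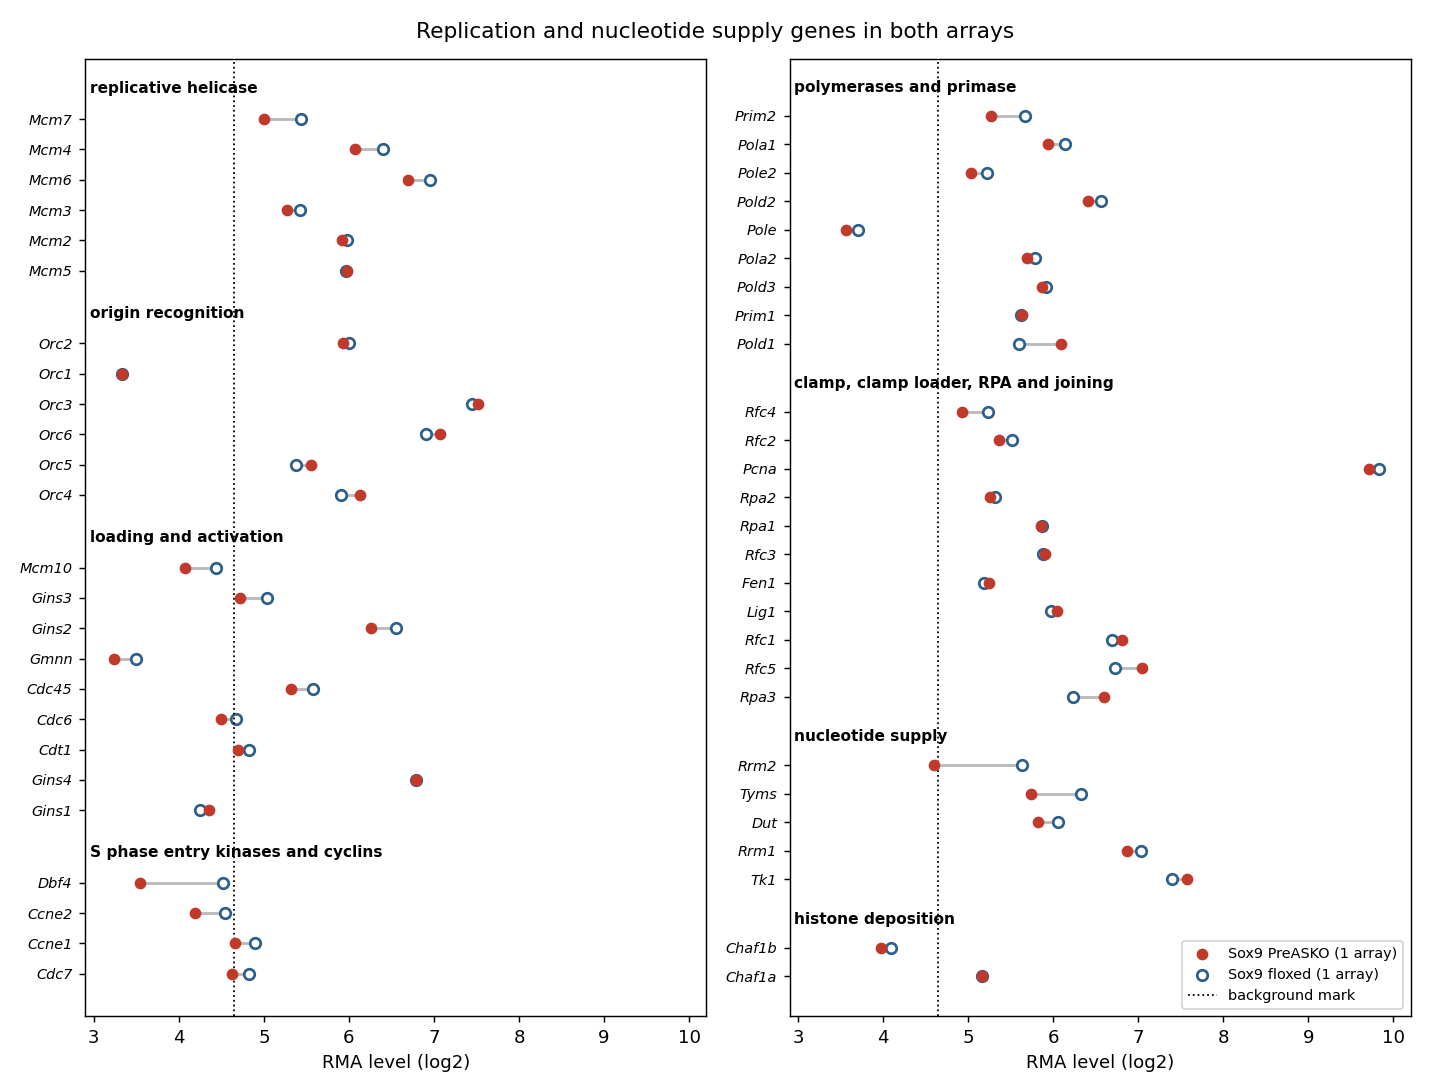
RMA level (log2, horizontal axis) of each of the 52 genes in the Sox9 PreASKO array (filled red) and the Sox9 floxed array (open blue), grouped by role, with the background mark of 4.64 as a dotted line. Long bars are seen for Rrm2, Dbf4 and Tyms, and most other pairs of points lie close together.

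Nucleotide supply held Rrm2 and Tyms, the genes past the limit that were above background in at least 1 array. Rrm2, the small subunit of ribonucleotide reductase whose level follows S phase, was at 4.60 in PreASKO and 5.63 in floxed, a difference of -1.03. Its PreASKO value lies below the mark, though above the percentile of its own array, so the fold is given as at least 1.98-fold lower. Only 0.115% of all genes had a difference as low or lower. The large subunit gene Rrm1 was at 6.86 in PreASKO and 7.03 in floxed (-0.17). Rrm2b, the alternative small subunit used outside S phase and not one of the 52, was at 5.65 in PreASKO and 5.75 in floxed (-0.10). The 3 subunit genes thus had unequal differences, largest in the S phase subunit. Tyms, thymidylate synthase, which makes dTMP from dUMP, was at 5.73 in PreASKO and 6.33 in floxed, 1.51-fold lower. That value sits at the edge of the limit. Dut, the enzyme that removes dUTP, was at 5.83 in PreASKO and 6.05 in floxed (-0.23). Tk1, the salvage thymidine kinase, went the other way, at 7.57 in PreASKO and 7.39 in floxed (0.18). The second, dimmer probe set of Tk1 read 5.71 in PreASKO and 5.62 in floxed (0.09), so both probe sets of the gene had higher readings in PreASKO.

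The genes of S phase entry were lower in 4 of 4, at low readings, with a median of -0.29 that became -0.09 with values raised to the mark. Cyclin E1, Ccne1, was at 4.67 in PreASKO and 4.90 in floxed (-0.24). Ccne2, the second cyclin E gene, was at 4.19 in PreASKO and 4.54 in floxed (-0.35), below the mark in both. Cdc7, the kinase that phosphorylates MCM, was at 4.63 in PreASKO and 4.83 in floxed, at least 1.13-fold lower. Its activating subunit gene Dbf4 was at 3.55 in PreASKO and 4.52 in floxed, a difference of -0.97. Both Dbf4 values lie below the mark, so no fold is given.

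The replicative helicase had 5 of 6 genes lower, all 6 above the mark in both arrays and none past the limit. The median was -0.21. Mcm7 was at 4.998 in PreASKO and 5.44 in floxed (-0.44), the largest difference of the 6. Mcm4 was at 6.07 in PreASKO and 6.40 in floxed (-0.33). Mcm6 was at 6.69 in PreASKO and 6.95 in floxed (-0.26). The other subunits of the same ring had smaller differences. Mcm3 was at 5.27 in PreASKO and 5.43 in floxed (-0.16). Mcm2 was at 5.92 in PreASKO and 5.97 in floxed (-0.05). Mcm5 was at 5.98 in PreASKO and 5.96 in floxed (0.02), a sign that turned under loess and quantile scaling. Mcm5 and Mcm6, with E2F words in the windows printed above, differed by 0.02 and -0.26.

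The origin recognition complex, which marks origins and stays on chromatin in G1, had the highest median of the 8 role groups. Of its 6 genes 4 were higher in PreASKO, 1 was lower and 1 equal, with a median of 0.12 and none past the limit. Orc4 was at 6.13 in PreASKO and 5.90 in floxed (0.23). Orc5 was at 5.55 in PreASKO and 5.37 in floxed (0.18). Orc6, which helps recruit MCM, was at 7.07 in PreASKO and 6.91 in floxed (0.16). The remaining genes lay near 0. Orc3 was at 7.52 in PreASKO and 7.44 in floxed (0.07), and Orc2 at 5.93 in PreASKO and 6.00 in floxed (-0.07). Orc1, the subunit whose level varies through the cycle in human cells, read 3.33 in both arrays, below the mark and equal to all digits deposited. Without these 6 the other 46 genes had 34 lower, 11 higher and 1 equal, and a median of -0.15.

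Helicase loading and activation had 7 of 9 genes lower, with a median of -0.25. With values raised to the mark that median was -0.03, since 3 of the 9 were at background in both arrays. Cdc6 and Cdt1 load MCM together. Cdc6 was at 4.49 in PreASKO and 4.68 in floxed, at least 1.02-fold lower, and Cdt1 was at 4.70 in PreASKO and 4.83 in floxed (-0.13). Gmnn, geminin, the inhibitor of CDT1, read 3.24 in PreASKO and 3.50 in floxed, and Mcm10, which helps the helicase start, read 4.07 in PreASKO and 4.44 in floxed, both genes below the mark. Cdc45, a part of the active helicase, was at 5.32 in PreASKO and 5.57 in floxed (-0.25). The 4 GINS subunits, the other partner of the active helicase, differed among themselves. Gins3 was at 4.72 in PreASKO and 5.04 in floxed (-0.32), and Gins2 at 6.26 in PreASKO and 6.55 in floxed (-0.28). Gins4 was at 6.79 in both arrays, equal to all digits deposited, and Gins1 read 4.36 in PreASKO and 4.25 in floxed, below the mark. Exactly equal values occurred in 758 genes of the table (3.80%), and 2 of the 52 were among them.

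Polymerases and primase had 7 of 9 genes lower, with a median of -0.14 and none past the limit. DNA polymerase alpha with its primase starts each strand. Prim2, the large primase subunit, was at 5.26 in PreASKO and 5.67 in floxed (-0.41), whereas its partner Prim1 was at 5.63 in PreASKO and 5.62 in floxed (0.01), a sign that turned under scaling. Pola1, the catalytic subunit, was at 5.94 in PreASKO and 6.14 in floxed (-0.19). Pola2 was at 5.69 in PreASKO and 5.78 in floxed (-0.08). Thus the 4 genes of this complex ran from -0.41 to 0.01. Polymerase delta copies the lagging strand. Its catalytic subunit gene Pold1 had the largest positive difference of the 52, at 6.09 in PreASKO and 5.60 in floxed (0.49), 1.41-fold and short of the limit. Pold2 and Pold3, its accessory subunits, were at 6.41 and 5.86 in PreASKO, against 6.56 and 5.92 in floxed (-0.16 and -0.05), so the subunits of one polymerase had opposite signs. Of polymerase epsilon, which copies the leading strand, Pole2 was at 5.04 in PreASKO and 5.22 in floxed (-0.18), and Pole read 3.56 in PreASKO and 3.70 in floxed, below the mark.

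Clamp, loader, single strand binding and joining genes were evenly divided, 5 lower and 6 higher of 11, with all 11 above the mark in both arrays. The median was 0.01, and -0.01 after loess scaling. Pcna, the sliding clamp, was well above the mark, at 9.71 in PreASKO and 9.82 in floxed (-0.11). Its probe sets, of which there were 2, held identical values in both arrays, so they do not give separate readings. The 5 loader genes Rfc1 to Rfc5 spread from -0.31 to 0.32. Rfc4 was at 4.93 in PreASKO and 5.24 in floxed (-0.31) and Rfc2 at 5.36 in PreASKO and 5.51 in floxed (-0.15). In the other direction Rfc5 was at 7.04 in PreASKO and 6.72 in floxed (0.32) and Rfc1 at 6.81 in PreASKO and 6.70 in floxed (0.11). Rfc3 was at 5.90 in PreASKO and 5.88 in floxed (0.01), a sign that turned under scaling. RPA coats single strands. Its smallest subunit gene Rpa3 was at 6.59 in PreASKO and 6.23 in floxed (0.36), and its second probe set read 4.89 in PreASKO and 4.61 in floxed (0.27). Rpa1 was at 5.86 in PreASKO and 5.87 in floxed (-0.01), and Rpa2 at 5.26 in PreASKO and 5.31 in floxed (-0.06). The joining enzymes were near level. Fen1, the flap endonuclease, was at 5.24 in PreASKO and 5.19 in floxed (0.05), and Lig1, DNA ligase I, at 6.04 in PreASKO and 5.98 in floxed (0.07). Histone deposition behind the fork was represented by the CAF-1 subunits. Chaf1a was at 5.16 in both arrays, and Chaf1b read 3.97 in PreASKO and 4.10 in floxed, below the mark.

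**Figure D3:**
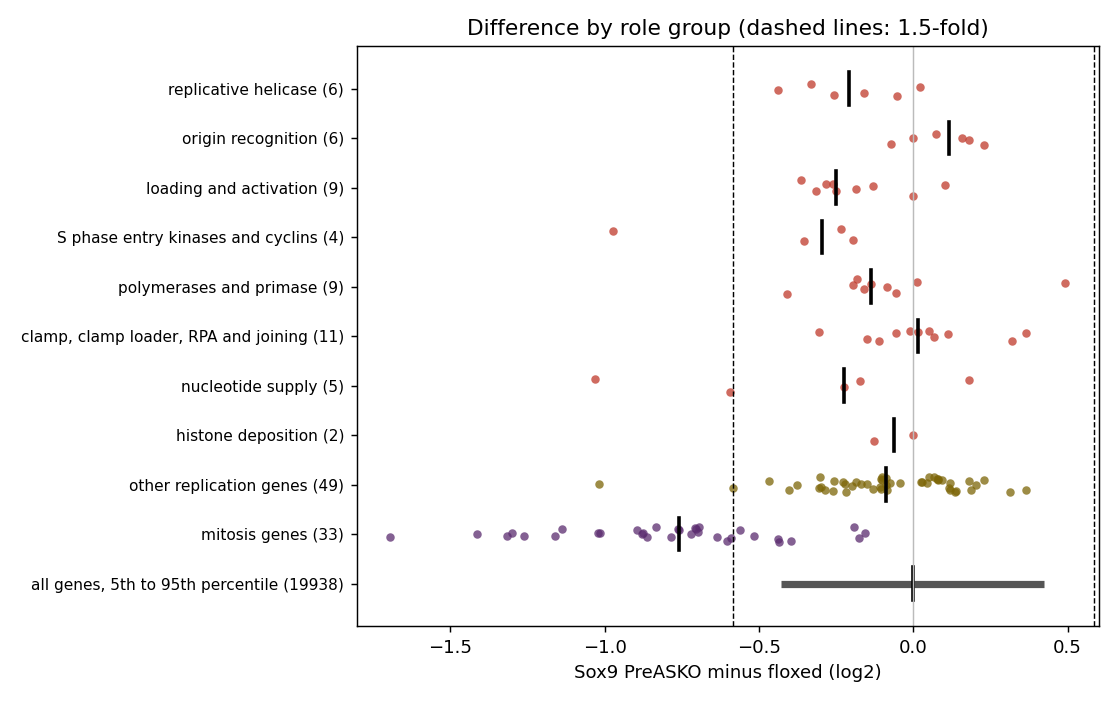
Difference PreASKO minus floxed (log2, horizontal axis) for each gene (points) by role group, with black bars for medians, dashed lines at 1.5-fold and the number of genes in brackets. The role groups have medians from -0.29 (S phase entry) to 0.12 (origin recognition), with the helicase at -0.21. Mitosis genes lie further left at a median of -0.76. The lowest bar spans the 5th to 95th percentile of all genes.

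Other genes of replication, its control and nucleotide metabolism formed a comparison list. Of its 49 measured genes 29 were lower (59.2%, against 48.0% of all genes) and 20 higher, with a median of -0.09. Past the limit was 1 gene (2.04%), on the lower side, against 1.98% of all genes. That gene was Ccna2, cyclin A2, which drives S phase progression and mitotic entry and was at 5.60 in PreASKO and 6.62 in floxed (-1.02). Timeless, a fork protection gene, was at 4.26 in PreASKO and 4.85 in floxed (-0.58). By its deposited values it lay at the edge of the limit, just short of it. Its PreASKO value was below the mark, so it is given as at least 1.15-fold lower. Uhrf1, which carries DNA methylation through replication, was at 5.85 in PreASKO and 6.32 in floxed (-0.47). Among genes of nucleotide salvage and breakdown, Tk2, the mitochondrial thymidine kinase, was at 5.39 in PreASKO and 5.02 in floxed (0.37), and Dck, deoxycytidine kinase, at 5.18 in PreASKO and 4.87 in floxed (0.31). Samhd1, a dNTP hydrolase abundant in myeloid cells, was at 9.21 in PreASKO and 9.10 in floxed (0.12). None of these 3 genes passed the limit. Of the genes that make nucleotides anew, Cad was at 6.82 in PreASKO and 6.74 in floxed (0.08), and Umps at 6.97 in PreASKO and 7.06 in floxed (-0.09).

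Genes of mitosis had more negative differences than the replication genes in the same arrays. Of 33 measured mitosis genes 33 were lower, and 25 lay past the limit by their deposited values (75.8%), against 3 of 52 replication genes (5.77%) and 1.98% of all genes. With values raised to the mark 19 of 33 mitosis genes (57.6%) and 2 of 52 replication genes (3.85%) were 1.5-fold lower, and the medians were -0.61 and -0.04. The medians of the deposited differences were -0.76 for mitosis and -0.13 for replication. The ranges overlapped, from -1.69 to -0.16 for mitosis and from -1.03 to 0.49 for replication. Mki67, the proliferation antigen, was at 5.60 in PreASKO and 6.90 in floxed (-1.30). Prc1, a microtubule cross-linker of the dividing cell, was at 4.36 in PreASKO and 6.05 in floxed, at least 2.66-fold lower. Top2a, the topoisomerase of dividing cells, was at 5.81 in PreASKO and 6.95 in floxed (-1.14). Ccnb2, a mitotic cyclin, Anln, an actin binder of cytokinesis, and Aurkb, a mitotic kinase, differed by -1.16, -1.02 and -0.89, with both arrays above the mark. The spindle, checkpoint and mitotic kinase genes Tpx2, Bub1b, Plk1 and Kif2c were below the mark in PreASKO, and were at least 1.995-fold, 1.99-fold, 1.66-fold and 1.39-fold lower. Cdk1, the mitotic kinase, was at 5.002 in PreASKO and 5.44 in floxed (-0.44), inside the range of the replication genes. With 1 array per group the difference between the lists has no test, and both lists were chosen with earlier results of these data known.

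**Figure D4:**
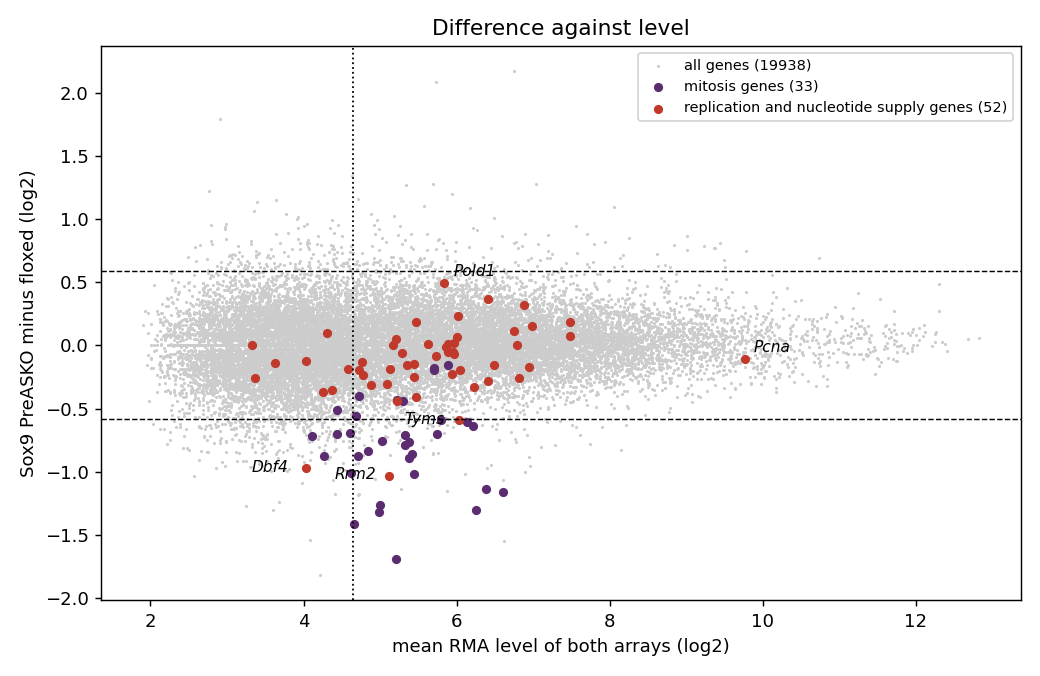
Difference PreASKO minus floxed (log2, vertical axis) against the mean level of both arrays (log2, horizontal axis) for all 19938 genes (grey), 33 mitosis genes (purple) and 52 replication and nucleotide supply genes (red), with dashed lines at 1.5-fold and the background mark dotted. Rrm2, Dbf4 and Tyms lie at or below the lower line, and Pold1 is the highest red point.

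Genes with an exact E2F word were set beside those without a match. Among the 43 replication genes with a window, the 13 with an E2F word had a median difference of -0.16 and the 30 without had -0.06. Without the origin recognition genes the medians were -0.17 over 12 with the word and -0.11 over 25 without it. Split by the CHR word, the 43 genes had medians of -0.19 over 7 with it and -0.06 over 36 without it. Over all genes with a window the medians were 0 with and 0 without an E2F word. Mitosis genes with the CHR word had a median of -0.79 over 23 genes and those without it -0.67 over 6. These medians describe 1 pair of arrays and have no test.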

How the data were processed

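Expression was measured on 2 arrays hybridised with biotin-labelled RNA of sorted PDGFRα+ cells, 1 per group. The deposited log2 values were made by the authors with RMA, per the submitters' processing notes. RMA subtracts background, evens out the distributions of the arrays and fits 1 value per probe set. Its version, log base and filters are not given in the sources used here. A log2 scale is inferred from the range of 1.23 to 13.8. RMA understates differences of dim genes, and a change shared by most genes would be removed.

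Of 35556 probe sets 21789 named 1 gene in the platform annotation, 1621 named several and 12146 were unlisted. Those with 1 gene gave 19938 genes. Symbols of all 52 genes matched RefSeq (GRCm38.p6), the source of the promoter windows. The genes and lists were chosen with earlier results of these data known. Values in both arrays are given for every gene of the 52, and for the other lists at most 10 genes past 1.5-fold and above the mark in an array are named, the most negative first. Timeless, Uhrf1, Tk2, Dck, Samhd1, Cad, Umps, Rrm2b, Cdk1, Cd3e, Kdr and Kcnj8 and the genes of the closing section were named after their values were seen. No test was made, since each group has 1 array, and the number of arrays limits the precision. A fold against a value below the mark is a lower bound computed from the mark. Alternatives were the mean over probe sets, every probe set, a 2-fold limit, level filters, values raised to background, centring, loess (span 0.3) and quantile scaling. Recovery of known differences past 1.5-fold was checked on simulated gene values, also after loess and quantile scaling. The choice of probe sets, the background mark and the promoter search were not part of that check. The software was Python 3.11.15 with matplotlib 3.10.9, statsmodels 0.14.6, scipy 1.17.1, numpy 2.4.6 and pandas 2.3.3.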

Additional observations from a re-analysis of the deposited data

How the results depend on the processing

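The median of the 52 genes, -0.13, was between -0.13 and -0.11 under the mean over probe sets, every probe set, centring, loess and quantile scaling. It was -0.10 over the 44 genes above the mark in an array, and -0.06 over the 38 genes at or above the median level, of which 23 were lower. At the 2-fold limit 1 of the 52 genes (Rrm2) was lower in place of 3. With values raised to the background mark (95th percentile) the median was -0.04, 29 genes were lower and Dbf4 was at 0, leaving Rrm2 and Tyms, 2 genes, at least 1.5-fold lower. The mitosis median was then -0.61. Raised to a stricter mark of 5.43, the 99th percentile of these olfactory receptors, the median of the 52 was 0, 20 genes were lower, 1 gene (Tyms) was 1.5-fold lower, Rrm2 was at -0.20 and the mitosis median was -0.19. Both settings bring dim values together by construction. Loading and activation moved to -0.03 and S phase entry to -0.09 at the first mark. Mcm5, Prim1 and Rfc3, all near 0, changed sign under loess and quantile scaling, under each of which 39 genes were lower in place of 35. Over all genes, 394 lower and 331 higher became 29 and 22 at 2-fold, 107 and 161 at or above the median level, 172 and 209 above the mark, 103 and 161 raised to it, and 53 and 94 raised to the higher mark. No replicate could be left out. No paired analysis was possible because the groups held a single array each.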

Other observations

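Of the E2F factor genes, the 5 that were listed (E2f1, E2f2, E2f3, E2f7 and E2f8) did not pass the 1.5-fold limit in either direction. E2f1, an activator of replication genes, was at 5.29 in PreASKO and 5.58 in floxed (-0.30). E2f7, a repressor of the same genes, was at 5.57 in PreASKO and 5.76 in floxed (-0.19), and E2f3, an activator, at 6.20 in PreASKO and 6.18 in floxed (0.02). E2f2 and E2f8 read below the background mark in both arrays. Cdc25a, a phosphatase that activates CDK2, was at 5.08 in PreASKO and 5.46 in floxed (-0.38), and Cdk2 at 5.92 in PreASKO and 6.21 in floxed (-0.29). Skp2, which targets CDK inhibitors for breakdown, was at 5.06 in PreASKO and 4.85 in floxed (0.20).

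The balance of the 52 genes varied with level. Of the 8 genes below the mark in both arrays 6 were lower in PreASKO (median -0.20), where 51.8% of all such genes were. Of the 24 genes whose higher array lay between the mark and 6, 19 were lower in PreASKO (median -0.14), where 47.9% of all genes in that range were. Of the 20 with a higher array above 6, 10 were lower (median -0.04), where 43.8% of all genes were.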
